A study of Homo sapiens with 6 samples.

Results

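The BCL2 family decides whether a cell commits to death through its mitochondria, and its transcripts were followed here in H9 human embryonic stem cells after knockdown of ALR, the RNA made from the alpha satellite repeats of human centromeres. The 10 genes BAX, BAK1, BBC3, PMAIP1, BCL2, BCL2L1, MCL1, BCL2L11, BID and BAD were taken by name, as a family, from a table of 53719 gene rows. The rule uses no measured value, but it was written with earlier results of these libraries known. They were read as 3 genes known as direct targets of the transcription factor p53 (BAX, BBC3 and PMAIP1) and 7 others. This split came with the rule, and whether p53 also acts on the 7 others was not tested. H9 is an established line, grown per the labels in RSeT medium, which is sold to hold a naive-like state. Both groups were transfected, 3 libraries with a gapmer against ALR (the knockdown group) and 3 with a control gapmer (the control group), and RNA was taken 48 h later. A gapmer is an antisense oligonucleotide that lets RNase H cut the RNA it pairs with. The libraries carry the letters a, b and c in each group, and values by library are given in that order. No label says whether they came from separate cultures, so p-values measure the spread between these libraries, which may be technical.

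Members of the family share short sequence blocks called BH domains and act on the outer mitochondrial membrane. BAX and BAK1 are the pore formers, which assemble in that membrane and let cytochrome c out. BCL2, BCL2L1 (BCL-XL) and MCL1 are guardians that hold the pore formers and their triggers in check. BBC3 (PUMA), PMAIP1 (NOXA), BCL2L11 (BIM), BID and BAD are BH3-only proteins, which bind the guardians or activate the pore formers when a cell is damaged, starved of growth signals or stressed. Human pluripotent cells are known for a low threshold to death by this route. As these are bulk samples, fewer cells of a type and less RNA per cell cannot be told apart.

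Total counts ran from 25087629 to 36576752 per library. Knockdown library a stood apart in detected rows, with counts in 29678 gene rows against 25898 to 26788 in the other 5, so changes and ratios that rest on it are also given without it. Knockdown library c weighed most on the number of genes past the threshold given below, which was 1309 without it, 102 without knockdown library a and 155 with all 6 libraries. The pluripotency genes POU5F1, NANOG, LIN28A, DPPA4 and TDGF1 were expressed in all libraries, whereas SOX2 was listed at 0 in each. None of the 5 passed with edgeR or limma-voom and 1 did with DESeq2, but POU5F1 had 133 ± 16.9 CPM in the knockdown and 99.8 ± 13.3 CPM in the control group (SD, n = 3; log2 fold change 0.42 ± 0.10 SE; unadjusted p = 0.00181, edgeR adjusted p = 0.0948). The groups were apart for POU5F1, for LIN28A (log2 fold change 0.19 ± 0.07 SE; edgeR adjusted p = 0.269) and, with lower knockdown values, for DPPA4 (-0.06 ± 0.06; edgeR adjusted p = 0.683). Groups were also apart in 18.9% of all tested genes (9.55% higher, 9.37% lower in knockdown), and 0.786% passed with edgeR. Of the naive-state genes, KLF17 had only 1 to 10 counts per library and DPPA5 had 0.809 to 1.23 CPM (read counts scaled by TMM library size), so these defining markers were near 0, while TFCP2L1, KLF4 and DPPA3 were detected. DNMT3L, another of these 6 genes, had 1.41 CPM in the knockdown and 2.33 CPM in the control group, without overlap (log2 fold change -0.72 ± 0.27 SE; unadjusted p = 0.0207, edgeR adjusted p = 0.258). The blood markers and 4 of the 6 fibroblast markers did not reach the low-count filter, THY1 among them being listed at 0 in all 6 libraries as SOX2 was. COL1A1 and COL1A2 did reach it, with summed levels of 85.6 to 95.1 CPM in knockdown and 89.9 to 103 CPM in control libraries. Among the untested blood and fibroblast markers, PTPRC had 40, CD34 15 and DCN 11 counts in knockdown library a. Each had 1 to 5 counts in every other library. COL3A1 and LUM were not highest in knockdown library a, and HBB had at most 1 count. The summed level of the tested trophectoderm markers (2 of 6) was 0.598 to 1.42 CPM over the control libraries and 0.752 to 0.881 CPM over the knockdown libraries, and that of the neural markers (1 of 4, PAX6) 1.51 to 2.64 and 1.89 to 2.12 CPM. The endoderm or mesoderm markers (3 of 6 tested) summed to 11.5 to 14.3 CPM in control and 14.6 to 15.9 CPM in knockdown libraries, mostly from MIXL1. The part of other cells, or of the pluripotency and naive-state genes, in the member values was not tested.

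None of the 10 members passed the threshold, an edgeR quasi-likelihood p adjusted over all genes by the Benjamini-Hochberg method of at most 0.05. All 10 passed the low-count filter. Among all 19721 tested genes 155 passed (0.786%), 128 of them lower (0.649%) and 27 higher in knockdown, and with library size alone as the scaling these were 102 and 56. At an unadjusted p under 0.05 there were 3 members, BCL2L11 and BCL2 with lower and BAK1 with higher values in knockdown, against 14.3% of all tested genes (7.57% lower, 6.68% higher). DESeq2's Wald test and limma-voom also called 0 members. The groups did not overlap in 4 members, BCL2L11 and BCL2 lower and BAK1 and BAD higher, where 18.9% of all tested genes had groups that did not overlap (9.37% lower, 9.55% higher). The median log2 fold change of the 10 members was 0.002, beside 0.02 over all tested genes, with 5 of 10 below 0 against 45.6%. The members did not share a direction, and each is described by its role.

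**Figure D1:**
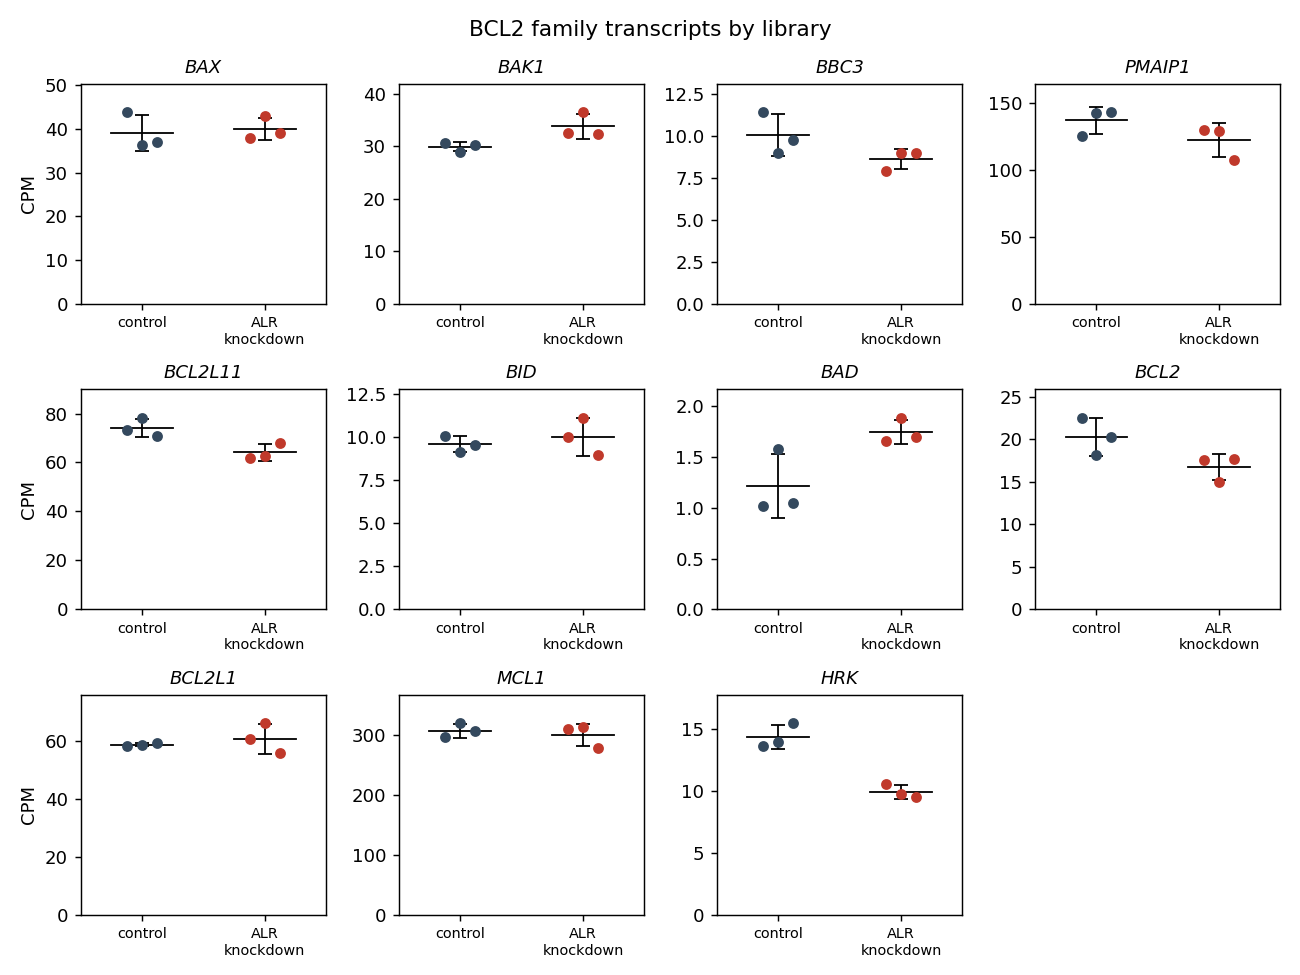
Level of each of the 10 members and of HRK in CPM (vertical axis, starting at 0) in 3 control and 3 ALR knockdown libraries. Points are libraries, horizontal lines are means and bars are SD. Control and knockdown points are separate for BAK1, BCL2L11, BAD, BCL2 and HRK and overlap for the other 6 genes.

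Levels of different genes were compared per kilobase of exon, using the joined exons of GENCODE release 29. In control libraries MCL1 was the most abundant member at 70.3 ± 2.65 CPM per kb, followed by PMAIP1 at 61.3 ± 4.51 (SD, n = 3). The gap below them was wide. BCL2L1 stood at 17.7 ± 0.176, BAX at 15.1 ± 1.60, BAK1 at 13.5 ± 0.389 and BCL2L11 at 11.1 ± 0.558 CPM per kb. The remaining members were scarce, with BBC3 at 3.16 ± 0.393, BID at 2.15 ± 0.103, BCL2 at 1.73 ± 0.188 and BAD at 0.711 ± 0.184 CPM per kb. Hence the dominant guardian transcript was MCL1, and BCL2 itself ranked below BCL2L1 in these cells. In the control libraries no 2 neighbours in this order overlapped. In the knockdown libraries the order of mean levels was the same, and the ranges of BAX and BAK1 overlapped, as did those of BBC3 and BID. Unused annotated exons lower such values, and reads shared with overlapping genes may be missing from them. Exons of other annotated genes cover 43.0% of the exon bases of BCL2L1 and 23.7% of those of BAD, and their part in these levels was not tested.

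**Figure D2:**
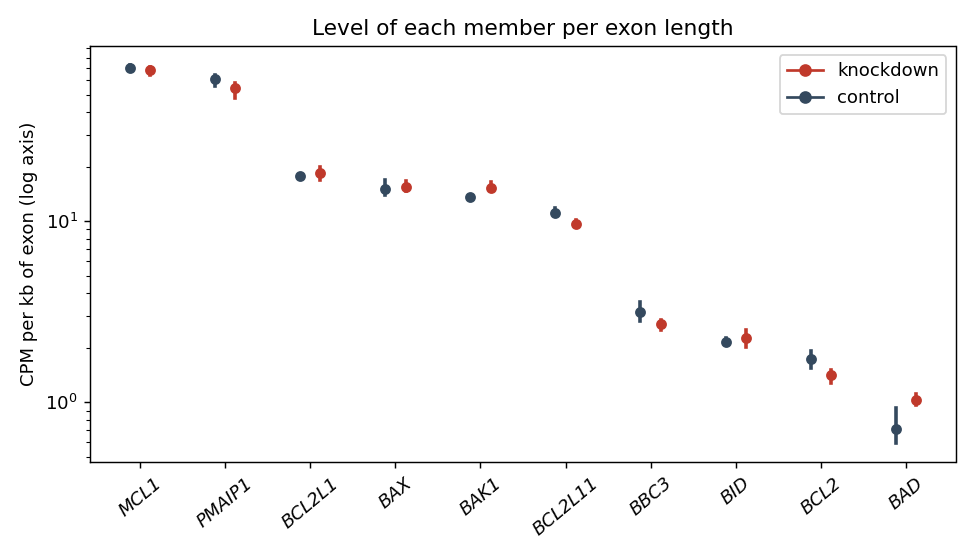
Level of each member in CPM per kb of exon (vertical log axis), ordered by the control mean. Points are means of 3 libraries and lines run from the lowest to the highest library, for control and knockdown. MCL1 and PMAIP1 lie above 48 and all other members below 20 CPM per kb.

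Of the pore formers, BAX did not separate the groups. BAX (ENSG00000087088.19, GRCh38 chromosome 19, 48954815 to 48961798, plus strand) had 38.0, 42.9 and 39.1 CPM by library in the knockdown group. The control group had 43.8, 36.3 and 37.1 CPM. The highest value was in control library a and the lowest in control library b, so all 3 knockdown libraries lay within the control range. The log2 fold change was 0.04 ± 0.09 (SE; edgeR adjusted p = 0.887), with a 95% interval from -0.15 to 0.22. That interval runs from -9.86% to 16.8%, and the sign of the change differed between settings, being below 0 in 4 of 15 alternatives, among them the fits without knockdown library b or without control library b or c.

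BAK1, the partner of BAX, was slightly higher in each knockdown library. BAK1 (ENSG00000030110.12, chromosome 6, 33572547 to 33580293, minus strand) had 32.5, 36.5 and 32.4 CPM in the knockdown group against 30.6, 28.99 and 30.2 CPM in the control group. The lowest knockdown library lay above the highest control library. The log2 fold change was 0.18 ± 0.07 (SE; unadjusted p = 0.0357, edgeR adjusted p = 0.312), with a 95% interval from 0.01 to 0.34, and it was 0.20 without knockdown library a. It was 0.11 without knockdown library b (edgeR unadjusted p = 0.186) and 0.11 with the trend over gene span removed, a setting chosen after seeing the data (edgeR unadjusted p = 0.167). Its near-identical copy BAK1P1 had 157 to 223 counts per library, against 819 to 1218 for BAK1, so some reads may have been assigned to the wrong one.

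The 250 bases before the RefSeq start of BAK1 are shown because they were the only ones among the members to hold a p53 half-site, the 10-base consensus of which a full p53 site holds a pair. The window is chr6:33580277-33580526 (GRCh38.p14, minus strand), printed 5′ to 3′ with the match in capitals, from position -73.
BAK1: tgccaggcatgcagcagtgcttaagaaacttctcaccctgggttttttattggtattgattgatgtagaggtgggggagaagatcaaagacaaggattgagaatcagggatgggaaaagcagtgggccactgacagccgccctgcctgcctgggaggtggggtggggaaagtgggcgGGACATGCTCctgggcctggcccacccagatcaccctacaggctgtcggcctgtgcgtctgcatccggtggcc
A half-site on either strand was found in 5.57% of 35116 such windows. No match was found in the windows of BAX, BBC3 or PMAIP1, and MCL1 had no window to search. Only matches without a mismatch inside these 250 bases were sought, so sites elsewhere or with a mismatch were not covered. A match is a description of the letters, not evidence of binding.

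Of the 5 BH3-only genes, 3 had log2 fold changes below 0. BBC3, whose product PUMA is a classical mediator of p53-dependent death, had 7.93, 9.02 and 8.98 CPM by library in the knockdown group. It had 11.4, 8.99 and 9.77 CPM in the control group. Control library a was the highest, and control library b lay among the knockdown libraries. BBC3 (ENSG00000105327.17, chromosome 19, 47220822 to 47232766, minus strand) differed by -0.22 ± 0.12 on the log2 scale (SE; edgeR adjusted p = 0.451), with a 95% interval from -0.48 to 0.05. Without control library a it was -0.11, and without knockdown library a -0.16. In the other direction, it was -0.30 without control library b and -0.26 without knockdown library b or c.

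PMAIP1 encodes NOXA, which binds MCL1 above all other guardians, and is a p53 target that other stress pathways also induce. PMAIP1 (ENSG00000141682.11, chromosome 18, 59899948 to 59904306, plus strand) had 130, 129 and 107 CPM in the knockdown group against 125, 142 and 143 CPM in the control group. Knockdown library c was the lowest, and control library a lay below knockdown libraries a and b. The log2 fold change was -0.16 ± 0.09 (SE; edgeR adjusted p = 0.415), with a 95% interval from -0.35 to 0.02. Without knockdown library c it was -0.10, and without knockdown library a -0.21. No annotated gene overlaps PMAIP1 or BAX.

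BCL2L11 encodes BIM, a strong activator of BAX and BAK1 that FOXO transcription factors are known to induce, and it had the smallest p of the 10 members. BCL2L11 (ENSG00000153094.22, chromosome 2, 111119378 to 111168447, plus strand) had 61.7, 62.7 and 67.9 CPM by library in the knockdown group. The control group had 73.4, 78.2 and 70.9 CPM. All 3 knockdown libraries lay below all 3 controls, with knockdown library c nearest to them. The log2 fold change was -0.21 ± 0.07 (SE; unadjusted p = 0.00942, edgeR adjusted p = 0.191), with a 95% interval from -0.36 to -0.06, a change of -13.6%. Without knockdown library c it was -0.27 and passed the threshold (edgeR adjusted p = 0.0280), and over the 15 alternatives the adjusted p ran from 0.0280 to 0.523. Without knockdown library a it was -0.19. Exons of a long noncoding RNA gene on the opposite strand cover 10.9% of its exon bases, and the strand setting of the counting is not given in the sources used here.

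The 250 bases before the RefSeq start of BCL2L11 are shown because they hold the letters GTAAACA, a core FOXO site, in capitals from position -223. The window is chr2:111120664-111120913 (GRCh38.p14, plus strand), printed 5′ to 3′.
BCL2L11: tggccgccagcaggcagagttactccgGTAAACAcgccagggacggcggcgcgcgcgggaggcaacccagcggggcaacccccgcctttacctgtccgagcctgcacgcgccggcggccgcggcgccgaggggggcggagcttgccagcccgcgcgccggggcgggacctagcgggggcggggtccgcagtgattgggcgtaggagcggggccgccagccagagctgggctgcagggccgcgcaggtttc
GTAAACA on either strand was found in 2.98% of the 35116 windows, and in no other member. FOXO3 itself had 145, 144 and 151 CPM in the knockdown group against 178, 171 and 179 CPM in the control group. Its log2 fold change was -0.26 ± 0.06 (SE; unadjusted p = 0.00100, edgeR adjusted p = 0.0783), with groups that did not overlap, so it did not pass over all genes, and it passed in 3 of 15 alternatives: DESeq2's Wald test, no low-count filter, and without knockdown library c. Any link between FOXO3 and BCL2L11 levels was not tested.

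BID links death receptors to mitochondria after caspase cleavage, and BAD is a sensor that growth factor kinases silence. BID (ENSG00000015475.18, chromosome 22, 17734138 to 17774770, minus strand) had 9.98, 11.1 and 8.94 CPM in the knockdown group and 10.1, 9.15 and 9.52 CPM in the control group. All 3 control libraries fell within the knockdown range (log2 fold change 0.07 ± 0.11 SE; edgeR adjusted p = 0.834; 95% interval from -0.18 to 0.32). BAD (ENSG00000002330.13, chromosome 11, 64269830 to 64284704, minus strand) had only 47, 63 and 43 counts in the knockdown group and 29, 49 and 38 in the control group. Its level was 1.66 to 1.89 CPM in knockdown and 1.02 to 1.58 CPM in control libraries, without overlap, but the 95% Wilson interval of knockdown library c (1.27 to 2.31 CPM of total counts) contained the value of control library b (1.56 CPM of total counts). The BAD change, 0.53 ± 0.28 on the log2 scale (SE; edgeR adjusted p = 0.414), had the widest 95% interval of the members, from -0.07 to 1.13, and its size is poorly determined at this depth. It was 0.57 without knockdown library a. GPR137, whose exons cover part of BAD on the opposite strand, differed by 0.17 ± 0.14 on the log2 scale (SE; edgeR adjusted p = 0.632).

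Among the guardians, BCL2 was lower in each knockdown library, while MCL1 and BCL2L1 overlapped between groups. BCL2 (ENSG00000171791.12, chromosome 18, 63123346 to 63320128, minus strand) had 17.6, 14.95 and 17.6 CPM by library in the knockdown group. It had 22.5, 18.1 and 20.3 CPM in the control group. The gap between the groups was small, from knockdown library c to control library b. The log2 fold change was -0.28 ± 0.10 (SE; unadjusted p = 0.0183, edgeR adjusted p = 0.247), with a 95% interval from -0.51 to -0.06, a change of -17.8%. BCL2 passed the adjusted threshold in 0 of 15 alternatives, with adjusted p from 0.126 to 0.591. Without control library a it was -0.19, and without knockdown library a -0.32.

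MCL1, a short-lived guardian on which embryonic stem cells are known to depend, had the highest level and one of the smallest changes. MCL1 (ENSG00000143384.12, chromosome 1, 150574551 to 150579738, minus strand) had 309, 312 and 279 CPM in the knockdown group against 296, 319 and 306 CPM in the control group. Its log2 fold change was -0.03 ± 0.07 (SE; edgeR adjusted p = 0.871), with a 95% interval from -0.18 to 0.12. BCL2L1 (ENSG00000171552.12, chromosome 20, 31664452 to 31723989, minus strand) had 60.5, 66.0 and 55.8 CPM in the knockdown group and 58.3, 58.5 and 59.4 CPM in the control group. The 3 control libraries lay close together inside the wider knockdown range (log2 fold change 0.05 ± 0.07 SE; edgeR adjusted p = 0.798; 95% interval from -0.11 to 0.21). As percent changes these intervals run from -11.9% to 8.38% for MCL1 and from -7.16% to 15.5% for BCL2L1.

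**Figure D3:**
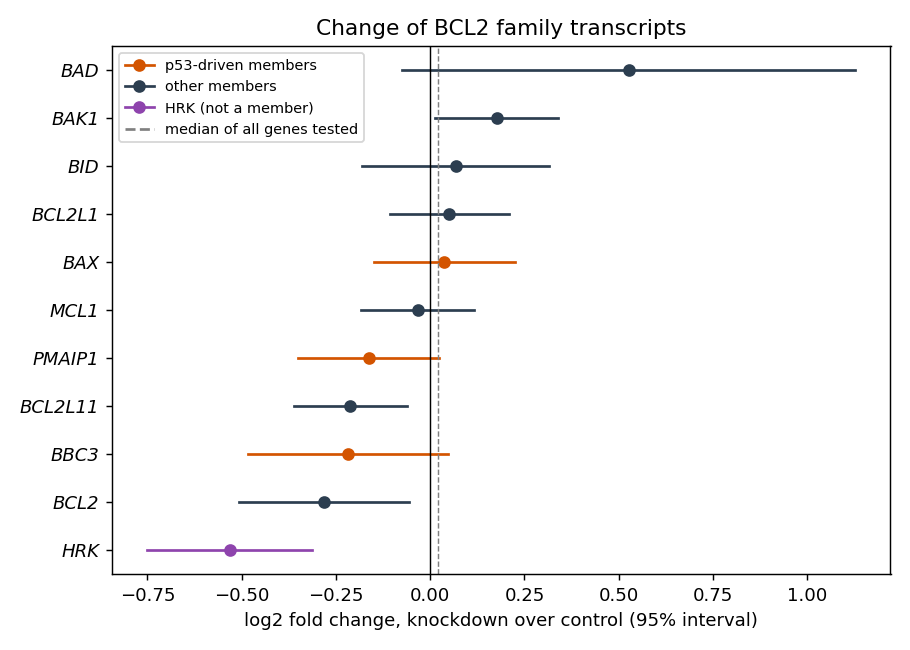
Log2 fold change of knockdown over control for the 10 members and HRK, with 95% intervals from the edgeR fit (horizontal axis). Colours separate the 3 p53-driven members, the other 7 and HRK; the dashed line is the median of all tested genes, 0.02. The intervals of HRK, BCL2, BCL2L11 and BAK1 do not cross 0, and those of the other 7 genes do.

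The comparison of p53-driven with other members was made without a test, since the members are few and chosen by name. The median log2 fold change was -0.16 over BAX, BBC3 and PMAIP1 and 0.05 over the other 7, a difference of -0.21. The 3 p53-driven members ran from -0.22 to 0.04, within the range of the other 7, from -0.28 (BCL2) to 0.53 (BAD). By library, the median centred log2 level of the p53-driven members minus that of the others was -0.08, -0.14 and 0.009 in the knockdown group. It was 0.19, -0.03 and 0.08 in the control group. Knockdown library c lay above control library b, so the groups overlapped. Of the p53-driven members 0 of 3 passed the edgeR threshold and 0 of 3 passed with DESeq2 or limma-voom. In the edgeR fit of all libraries 0 had an unadjusted p under 0.05, and 0 had groups that did not overlap. Over the 15 alternatives an unadjusted p under 0.05 was reached by PMAIP1 in 5, BBC3 in 1 and BAX in 0, and the adjusted threshold was passed in 0. For p53 targets outside the family the counts were different: 5 of 20 tested genes passed, all lower (MDM2, EDA2R, TNFRSF10B, CDKN1A and ZMAT3), and the median was -0.25. Of all 19721 tested genes 0.786% passed (0.649% lower). DESeq2 called 8 of the 20 and limma-voom 5, beside 536 and 174 of all tested genes. The 5 named genes kept their direction and an unadjusted p under 0.05 in 15 of 15 alternatives. MDM2 and EDA2R passed in 13 of them and TNFRSF10B, CDKN1A and ZMAT3 in 11. Log2 fold changes ran from -0.51 to -0.43 for MDM2 and from -0.78 to -0.52 for CDKN1A. Passing the threshold depended on single libraries. Leaving out control library a, b or c also lowered the count of all genes past it, from 155 to 26, 42 and 42. Without control library a 0 of the 5 named genes passed (edgeR adjusted p from 0.0678 for MDM2 to 0.161 for ZMAT3), and without control library b only EDA2R did (the other 4 from 0.0746 for MDM2 to 0.163 for ZMAT3). Without control library c EDA2R, TNFRSF10B and ZMAT3 were lost (edgeR adjusted p = 0.0882, 0.0793 and 0.0566), and without knockdown library b TNFRSF10B, CDKN1A and ZMAT3 (0.0582, 0.0938 and 0.104). Without knockdown library a CDKN1A was lost (edgeR adjusted p = 0.0528). That list was assembled with earlier results of these libraries known and is no independent evidence, and the difference between it and the BCL2 family genes was not tested.

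The balance between killer and guardian transcripts was then read within each library as the log2 ratio of counts, which does not depend on scaling. Protein levels were not measured in these libraries. The ratio of PMAIP1 to MCL1 was -1.25, -1.27 and -1.38 in the knockdown group. In the control group it was -1.24, -1.16 and -1.10. All knockdown libraries lay below all controls, though library a of each group differed by little, and the mean difference was -0.13, or -0.16 without knockdown library a and -0.09 when library c was left out instead. The ratio of BCL2L11 to MCL1 was -2.33, -2.32 and -2.04 in the knockdown and -2.01, -2.03 and -2.11 in the control group, where knockdown library c overlapped the controls. Its mean difference was -0.18, and it was -0.13 without knockdown library a or b and -0.27 without knockdown library c. The other 3 ratios had overlapping groups. BBC3 to MCL1 differed by -0.18 on average, but by -0.06 without control library a, -0.10 without knockdown library a and -0.29 without control library b. BAX to MCL1 differed by 0.07, and by 0.13 without knockdown library a, 0.18 without control library a and -0.005 when library b was left out instead. BAX to BCL2L1 differed by -0.008, and by 0.03 without knockdown library a. It was 0.08 when control library a was left out and -0.06 when control library b was. Thus 1 of the 5 ratios separated the groups, and all but BAX to BCL2L1 share MCL1. Among single tested genes 18.9% had groups that did not overlap, and the share among other gene pairs was not computed.

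**Figure D4:**
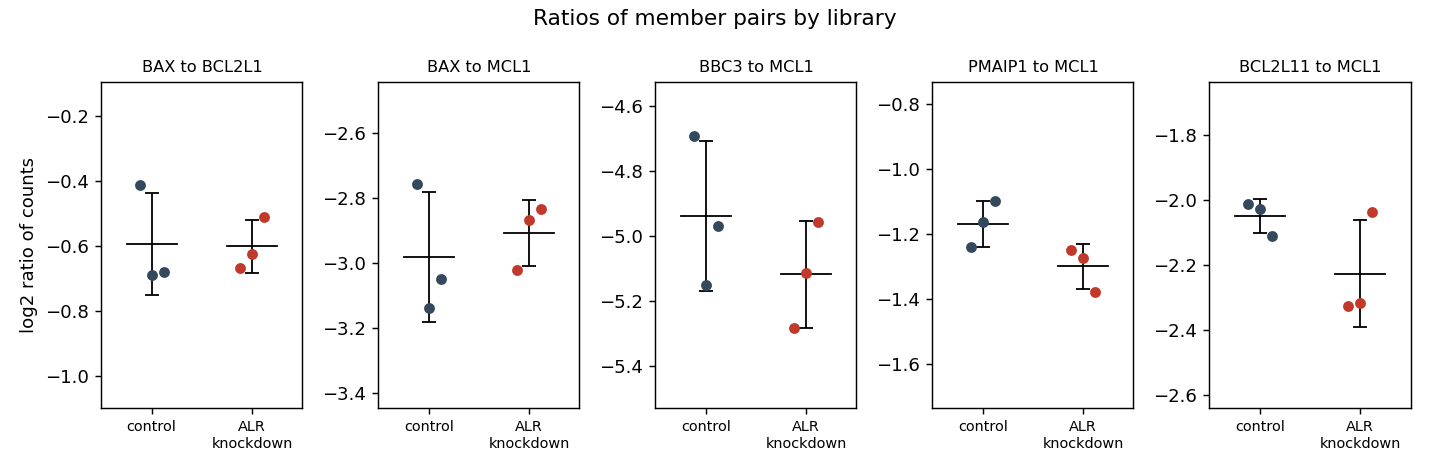
Log2 ratio of counts for 5 pairs of members (vertical axis, each panel spanning 1 log2 unit) in 3 control and 3 knockdown libraries. Points are libraries, horizontal lines means and bars SD. The groups are apart for PMAIP1 to MCL1 and overlap for the other 4 ratios.

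The strongest change in the wider family was that of HRK (Harakiri), a BH3-only gene best known from neurons, where its product binds BCL2 and BCL2L1. HRK had 10.6, 9.71 and 9.50 CPM by library in the knockdown group. It had 13.6, 13.9 and 15.4 CPM in the control group. All 3 knockdown libraries lay well below all 3 controls. HRK (ENSG00000135116.9, chromosome 12, 116856144 to 116881441, minus strand) fell, with a log2 change of -0.53 ± 0.10 (SE; edgeR adjusted p = 0.0315), with a 95% interval from -0.75 to -0.31, a change of -30.9%. No annotated gene overlaps it. The fall kept its direction in 15 of 15 alternatives and passed the threshold in 11. It was lost without knockdown library b (edgeR adjusted p = 0.106) and without control library a (0.119), b (0.128) or c (0.229), where the log2 fold change was -0.47 to -0.56. Without knockdown library a it was -0.58 and passed (edgeR adjusted p = 0.0371).

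The 250 bases before the RefSeq start of HRK are shown because it was the only BCL2 family gene whose change passed the threshold. The window is chr12:116881442-116881691 (GRCh38.p14, minus strand), printed 5′ to 3′, and it is in lower case throughout because neither a p53 half-site nor GTAAACA was found in it.
HRK: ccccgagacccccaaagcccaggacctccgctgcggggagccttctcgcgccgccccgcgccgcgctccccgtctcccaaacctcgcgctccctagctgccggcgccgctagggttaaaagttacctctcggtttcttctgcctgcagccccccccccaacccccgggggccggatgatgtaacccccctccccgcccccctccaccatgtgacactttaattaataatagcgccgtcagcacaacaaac

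HRK belonged to a list of 13 further family genes, of which 9 were tested. HRK was the 1 gene that passed, with edgeR, DESeq2 or limma-voom, and 0 passed in the higher direction. Of all tested genes 0.649% passed with lower and 0.137% with higher knockdown values in the edgeR fit. The list median was 0.08, beside 0.02 over all tested genes, and 3 of the 9 were below 0. An unadjusted p under 0.05 was reached by HRK and by 3 genes with higher knockdown values, BNIP3, BOK and BCL2L12, named after their values were seen. Over all tested genes the share was 14.3% (7.57% lower, 6.68% higher). BNIP3, a mitochondrial protein induced by low oxygen, had 49.3, 55.1 and 52.5 CPM in the knockdown group and 44.1, 44.8 and 43.7 CPM in the control group, without overlap (log2 fold change 0.24 ± 0.07 SE; unadjusted p = 0.00336, edgeR adjusted p = 0.127). BOK and BCL2L12 had log2 fold changes of 0.25 each, with overlapping groups. Of the 4 others, BCL2L15 was listed at 0 in all libraries, and BCL2L2, BCL2L10 and BCL2A1 had too few counts. BCL2L2 encodes BCL-W, another guardian, and had only 3 to 10 counts per library, whereas the read-through gene BCL2L2-PABPN1, which shares 19.4% of its exon bases, had 87 to 143. Reads common to both may be missing from the BCL2L2 row, which was not tested.

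Of a list on steps downstream of the mitochondrial pore, 0 of 22 tested genes passed with edgeR (0 with DESeq2 or limma-voom). Of all 19721 tested genes 0.786% passed with edgeR. An unadjusted p under 0.05 was reached by 3 of the 22, all higher, where 14.3% of all tested genes reached it (6.68% higher). The list held cytochrome c, the apoptosome, caspases and their inhibitors, and its median log2 fold change was 0.04. It also held CASP2, CASP8, the VDAC genes and PARP1, so not every gene on it acts downstream of the pore. AIFM1, a mitochondrial flavoprotein that can promote cell death from the nucleus, had 79.5 ± 4.20 CPM in the knockdown group against 70.6 ± 1.88 CPM in the control group (SD, n = 3; log2 fold change 0.17 ± 0.07 SE; edgeR adjusted p = 0.262). DIABLO, an antagonist of caspase inhibitors, was listed at 0 in all 6 libraries, as SOX2 and THY1 were. Whether the transcript was absent or its reads were lost in counting was not tested.

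Of 16 factors that act on family members, such as FOXO3 and the MCL1 ubiquitin ligase HUWE1, 0 passed with edgeR, 1 with DESeq2 (FOXO3) and 0 with limma-voom. Over all tested genes 0.786% passed with edgeR, and 536 genes passed with DESeq2 and 174 with limma-voom. An unadjusted p under 0.05 was reached by 3 with lower and 1 with higher values in knockdown, beside 7.57% lower and 6.68% higher among all tested genes. The median was 0.06. After FOXO3, described with BCL2L11, the smallest p was that of DDIT3 (CHOP), a stress factor that can induce BCL2L11 and BBC3. DDIT3 had 3.45, 3.09 and 4.27 CPM in the knockdown group and 4.96, 4.86 and 4.76 CPM in the control group (log2 fold change -0.44 ± 0.17 SE; edgeR adjusted p = 0.263). The knockdown libraries were all below the controls.

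**Figure D5:**
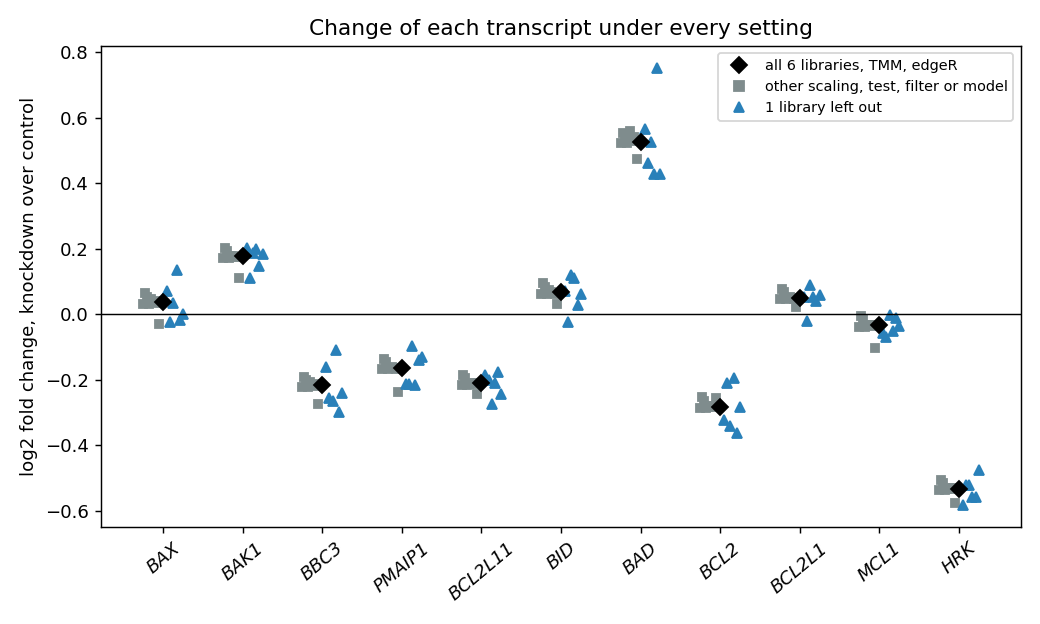
Log2 fold change of each member and HRK (vertical axis) with all 6 libraries (diamond), under other scalings, tests, filters and models (squares) and with 1 library left out (triangles). The values of HRK, BCL2, BCL2L11, PMAIP1, BBC3 and MCL1 stay below 0 and those of BAK1 and BAD above 0 in these settings, while those of BAX, BID and BCL2L1 cross 0.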

How the data were processed

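The submitters' processing notes name Trimmomatic 0.39, STAR 2.7.8a, featureCounts, Subread 2.14.2 and build hg38. Annotation, strand setting and handling of shared reads are not given in the sources used here. The authors deposited raw read counts per gene symbol for 6 libraries. Members and gene lists were chosen with earlier results of these data known.

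Genes were kept by filterByExpr (19721 of 53719 rows), scaled by TMM and tested with edgeR 4.0.16 (R 4.3.3; glmQLFit, glmQLFTest, group as the only term), two-sided, with Benjamini-Hochberg adjustment over all tested genes. Intervals of fold changes are 95% intervals from that fit. Log levels used a prior count of 2. Wilson intervals cover counting error only; counting error at the lowest count was 18.6% for BAD and at most 6.67% for the other members. Gene models came from GENCODE release 29 and promoters from RefSeq (GRCh38.p14), with a window for 9 of 10 members; BID, BAD and BCL2L1 had several. All members were named; from each list, genes past the threshold were named, or else the 2 with the smallest p; some results are not reported here. Alternatives were other scalings, DESeq2 1.42.0, limma-voom (limma 3.58.1), other filters, the replicate letter as a block, each library left out, and, added after seeing the data, removal of each library's trend on gene span (spline with 5 degrees of freedom, 81.0% of tested genes). The fit was tested on simulated counts.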

Additional observations from a re-analysis of the deposited data

How the results depend on the processing

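The count of 0 members past the threshold was kept in 14 of 15 alternatives; without knockdown library c it was 1 (BCL2L11), so the range over the fits that left out a library was 0 to 1. The count of changed genes, 155, was 536 with DESeq2's Wald test, 1064 without a low-count filter and 235 with the gene span trend removed. When a library was left out it ran from 26 (without control library a) to 1309 (without knockdown library c). With the replicate block the count was 393, with 0 members called. The correlation of deviations by letter was 1.23e-05 for a, 0.116 for b and -0.03 for c. These small values showed no pairing by letter, but they cannot exclude one, and no label settles it. The block changed no call among the 10 members, HRK, AIFM1, FOXO3, DDIT3 and the 5 named p53 targets. The difference between p53-driven and other members stayed between -0.26 and -0.16. BAX was -0.029 with the gene span trend removed and -0.023 to 0.134 when a library was left out. Under the same omissions BID ran from -0.023 to 0.120, BCL2L1 from -0.021 to 0.088 and MCL1 from -0.070 to -0.0034. BAD was not tested with a mean count of at least 50 and had no adjusted p in DESeq2. The causes of these shifts were not tested.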
